A study of Mus musculus with 2 samples.

Results

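A small set of mesenchymal cells that held RNA of both Ngfr and Ebf2 was examined in single-cell RNA-seq of mouse embryos at E14. The cells were chosen by their raw UMI counts, that is by the number of distinct RNA molecules read per gene. A cell was taken when it had at least 2 UMIs of Ngfr, at least 1 of Ebf2 and at least 5 of Col3a1. It was left out when it had any UMI of Sox10, Pecam1 or Cdh5, 5 or more of Tnmd and Scx, 5 or more of Dpt, Clec3b and Cd55, or 3 or more of Osr1 and Meox2. The rule found 202 of 22086 cells that had at least 1000 UMIs and at most 10% of them from mitochondrial genes. These were 33 of 9942 cells of library 1 and 169 of 12144 cells of library 2. The genes of the rule are therefore high or low in these cells by choice, and their values are given only as a description.

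Ngfr encodes p75, a receptor that binds all neurotrophins and is known from sensory neurons, Schwann cells and several kinds of embryonic and adult mesenchyme. Ebf2 is a transcription factor of the early B cell factor family, which acts in adipocyte precursors, bone marrow stroma and neurons. Tcf15 (paraxis) is a helix-loop-helix factor of the somite epithelium, and Aldh1a3 is an enzyme that makes retinoic acid. Tcf15 and Aldh1a3 came with the name of the population and had been picked with these data known.

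There were 2 libraries, 1 for each genotype and with no replicate, so no test between genotypes was possible and no p-value is given. Both genotypes carried Myf5-Cre, which expresses Cre recombinase under control of Myf5, and the tdT reporter, which marks every cell in which Cre has been active and all descendants of that cell. They differed at Srsf2, an SR splicing factor, with 1 or both alleles floxed (SRSF2f/w/Myf5-Cre/tdT and SRSF2f/f/Myf5-Cre/tdT), so the control carried a deletion too. Trunks and limbs were dissociated with enzymes and tdT-positive cells were taken by flow sorting. The number of embryos behind each library is not given in the sources used here. The sources also contradict each other on which library is which. By cell number, library 1 (12498 barcodes) belonged to the sample titled SRSF2f/w/Myf5-Cre/tdT, yet its summary was marked as the knockout and the study's own quality page headed it as the mutant. Library 2 (15268 barcodes) belonged to the sample titled SRSF2f/f/Myf5-Cre/tdT and was marked as the wild type and headed as the heterozygote. The study's text counts fewer control than mutant cells after its filters, which is the order that the sample titles give. It also gives a far smaller share of skeletal muscle cells for the mutant than for the control. The libraries are therefore named by number here, and no genotype is attached to any direction, since a sample's condition was not inferred from its values. Skeletal muscle cells, a lineage of Myf5, were far fewer in library 1. The cluster led by Pax7, Msc and Myf5 held 45 cells of library 1 and 1011 of library 2, that led by Msc, Myf5 and Pax7 63 and 731, that led by Myog 47 and 801 and that led by Tnnc2 and Acta1 13 and 114. Library 1 summed to 128116615 UMIs and library 2 to 156093779 UMIs, with medians of 8105.5 and 9219 UMIs per barcode. The libraries shared 74 barcode sequences, and none of these was in chosen cells of both libraries.

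Part of the chosen cells also held RNA of neurons. Over a list of 10 neuron genes, 27 of the 202 cells had 14 to 669 UMIs (median 203), while the other 175 cells had at most 4 and 116 of these had none. The limit of 10 UMIs was set after this gap had been seen. The 27 cells held RNA of sensory neurons. Prph, the intermediate filament of peripheral neurons, stood at 2804 CPM (UMIs of the gene in each 1000000 UMIs of the summed cells) in them and at 4.51 in the 175 cells. Scn10a, a sodium channel of sensory neurons, was at 86.8 CPM in the 27 cells and at 0 in the 175. Collagen RNA went the other way, with Col3a1 at 678 CPM in the 27 cells and 2696 in the 175. When all cells were clustered without the genes of the rule, 20 of the 27 fell in a cluster with Sncg, Gal, Prph and Scn10a among its leading genes, while none of the 175 fell there. Tcf15 was nearly absent from the 27 cells (6.05 CPM) and Aldh1a3 was at 21.2 CPM.

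The 27 cells were deep, with a median of 35345 UMIs against 10801 in the 175. Whether the 27 were neurons with free collagen RNA, or droplets with 2 cells, was not tested. The doublet caller marked 16.7% of those of library 2 (3 cells) and found no doublet at all among the 9942 cells of library 1, where it has to be read as not having worked. It also marked 10.6% of the 175 that were of library 2 (16 of 151 cells), against 3.88% of the other Col3a1 cells and 3.68% of all kept cells of that library. Without the marked cells the log2 ratio of library 2 over library 1 for the share of the 175 was 2.26 instead of 2.36, and the part of doublets in the other values is given below where it was large. The 27 cells with neuron RNA made up 27.3% of the chosen cells of library 1 (95% interval 13.3 to 45.5) and 10.7% of library 2 (6.44 to 16.3). Intervals here and below are exact binomial or Poisson intervals and cover counting error only. The results that follow are for the 175 cells, called Ngfr/Ebf2 mesenchymal cells, and the main counts for all 202 are given beside them.

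**Figure D1:**
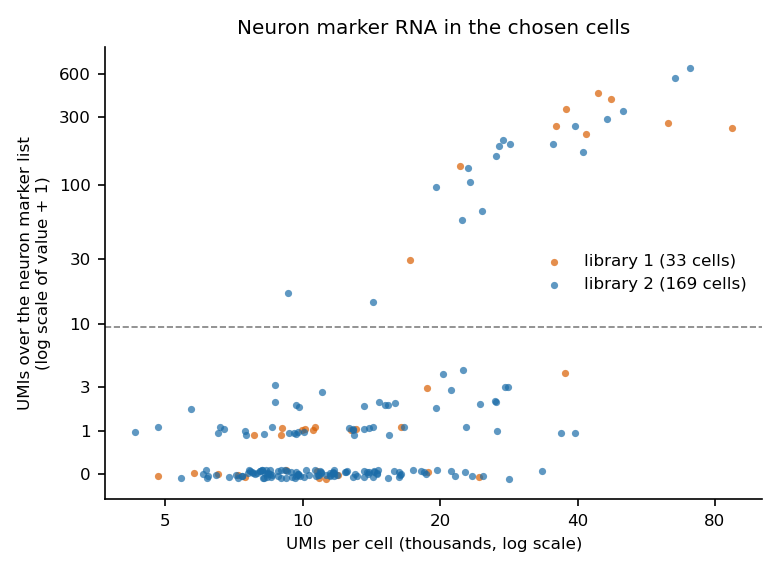
Each point is 1 of the 202 chosen cells, with its UMIs (in units of 1000, log scale) on the x axis and its UMIs over the 10 neuron genes (log scale of value + 1) on the y axis. The 27 cells above the dashed line at 10 hold 14 to 669 neuron UMIs and lie apart from the 175 below it, which hold at most 4.

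Srsf2, the floxed gene, was measured first. The Ngfr/Ebf2 mesenchymal cells of library 1 held 146 CPM of Srsf2 (106 to 197) and those of library 2 held 194 CPM (175 to 215). The log2 ratio of library 2 over library 1 was 0.41, with an interval of -0.05 to 0.90 that included 0. Over all kept cells Srsf2 was at 153 CPM in library 1 and 219 CPM in library 2, a log2 ratio of 0.52 (0.49 to 0.54). RNA of the gene was thus lower in library 1 but present in both libraries, and a 3′ tag outside the deleted part of a gene cannot show the deletion.

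The cells were several times more frequent in library 2. They were 24 of 9942 cells in library 1, or 0.241% (0.155 to 0.359), and 151 of 12144 cells in library 2, or 1.24% (1.05 to 1.46). The share was 5.15-fold higher in library 2 (3.35 to 7.92). Col3a1 cells as a whole were also more frequent there, and as a share of cells with at least 5 Col3a1 UMIs and no Sox10, Pecam1 or Cdh5 the figures were 0.698% of 3440 and 2.36% of 6404, a 3.38-fold difference (2.20 to 5.19). The share of the 27 neuron-RNA cells differed by less than counting error, at 0.0905% and 0.148%. A share from 1 library per genotype has no replicate check, and fewer cells of a type cannot be told apart from fewer of them sorted.

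**Figure D2:**
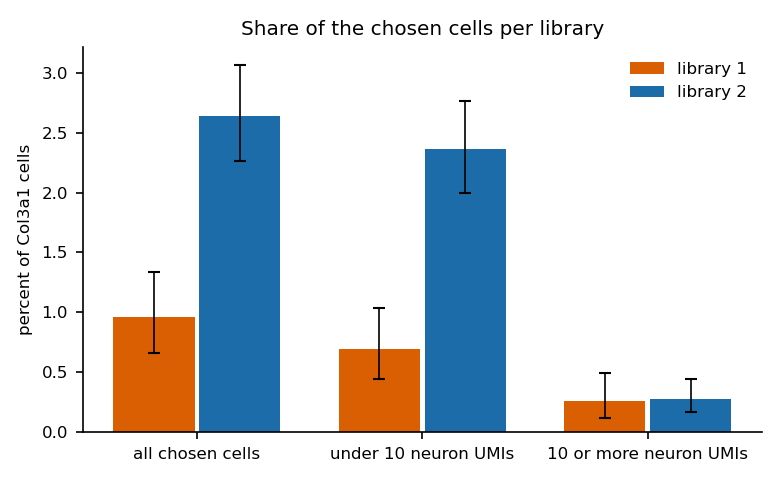
Bars give the percent of Col3a1 cells (at least 5 Col3a1 UMIs, no Sox10, Pecam1 or Cdh5) that were chosen, per library, with exact binomial 95% intervals. The 175 cells under 10 neuron UMIs are 0.698% in library 1 and 2.36% in library 2, and the 27 cells with neuron RNA are 0.262% and 0.281%.

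The clauses of the rule did unequal work. Of 11118 kept cells with at least 5 Col3a1 UMIs, 701 had 2 or more Ngfr UMIs and 424 of these had Ebf2. The largest loss after that came from the clause on Osr1 and Meox2, factors of muscle connective tissue, which alone took out 86 cells. Many cells sat at the threshold. Ngfr was exactly 2 UMIs in 70 of the 175 cells (40%) and 5 or more in 47, and Ebf2 was exactly 1 UMI in 51 (29.1%). Just outside, 163 cells met every other clause with 1 Ngfr UMI. Their Tcf15 was at 18.7 CPM and their Aldh1a3 at 39.8 CPM, against 35.8 and 74.1 CPM in the cells with exactly 2.

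To see what else the cells shared, their summed RNA was set against the 7099 other Col3a1 cells that met every clause except having both Ngfr and Ebf2, with neuron RNA under 10 UMIs. These comparison cells were a mixture that included cartilage, bone and dermal cells. A gene was called when its level differed at least 2-fold the same way in both libraries. Of 6077 genes at 20 CPM or more outside the rule, 63 (1.04%) were called higher and 87 (1.43%) lower in the Ngfr/Ebf2 mesenchymal cells, and the median log2 ratio over all these genes was 0.06. With all 202 cells, 270 of 6360 genes (4.25%) were called higher and 70 (1.1%) lower. The genes at the top of that ranking were Scn10a, Prph and Pirt, which mark sensory neurons. The higher sets shared only 13 genes and the lower sets 50.

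Both label markers outside the rule were high. Tcf15 stood at 47.6 CPM in library 1 and 53.5 in library 2, against 7.59 and 7.01 in the comparison cells, a pooled log2 ratio of 2.87 (2.57 to 3.16). Aldh1a3 stood at 78.2 and 96.7 CPM against 25.4 and 25.2, a log2 ratio of 1.90 (1.69 to 2.10). The levels of the chosen cells lay above those of the comparison cells in both libraries for both genes. A Tcf15 UMI was nevertheless found in only 68 of the 175 cells and an Aldh1a3 UMI in 95. When every cell was thinned to 5000 UMIs, which left out 1 cell of library 1 and 2 of library 2, Tcf15 was seen in 21.7% of the cells of library 1 (7.46 to 43.7) and 24.2% of library 2 (17.5 to 31.8), against 3.14% and 3.37% of the comparison cells. Unthinned, the shares were 29.2% and 40.4% against 6.16% and 6.56%. In the 27 neuron-RNA cells, thinned in the same way, Tcf15 was seen in 0 of 9 cells of library 1 and 0 of 18 of library 2. Unthinned it was seen in 22.2% and 5.56%. The exact binomial intervals of the thinned shares reach 33.6% and 18.5%. They hold for detection at 5000 UMIs and set no limit on the share of cells that express the gene.

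Cntfr, the binding subunit of the receptor for ciliary neurotrophic factor, was at 109 and 96.7 CPM against 21.4 and 22.3, a log2 ratio of 2.16 (1.95 to 2.36). Its levels were alike in the 2 libraries. Gpr83, a G protein-coupled receptor, had the largest pooled ratio of the ranked genes with at least 40 UMIs, 4.72 (4.19 to 5.25), but rested on 2 UMIs in library 1 and 51 in library 2. Its level was 6.8 and 26.5 CPM against 0.635 and 1.05. Gpr83 thus reached the limit of 20 CPM only through the chosen cells, where it was high. Its place in the ranking is in part set by that limit and is given as a description. The same holds for Tcf15, Cdh4, Entpd2, Syt13, Meox1, Hic1, Tnnc2, Thbs4 and Nppc, which were under the limit in the comparison cells of both libraries pooled.

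Ntm, a GPI-anchored neural adhesion molecule, was at 201 and 190 CPM against 41.8 and 34.3, a log2 ratio of 2.37 (2.22 to 2.52). Cdh4 (R-cadherin) was at 61.2 and 84.2 CPM against 15.2 and 15, and Entpd2, an enzyme that hydrolyses extracellular nucleotides, at 44.2 and 22.3 CPM against 3.81 and 3.07. Syt13, of the synaptotagmin family, was at 23.8 and 44.7 CPM against 6.18 and 5.74. For each of these 4 genes the ratio was at least 2-fold in both libraries. The 24 cells of library 1 held 294209 UMIs in all, so that Syt13 and Entpd2 rest on few UMIs there. Lamb1, a laminin chain, was at 167 and 232 CPM against 58.9 and 81.2, a log2 ratio of 1.61 (1.47 to 1.74).

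Igf1, a growth factor, was at 347 and 453 CPM against 171 and 146, a log2 ratio of 1.51 (1.41 to 1.60). Igfbp3, which binds and carries insulin-like growth factors, was at 119 and 256 CPM against 47 and 55.8, and Dlk1, an imprinted inhibitor of fat cell differentiation, at 1965 and 2134 CPM against 891 and 911. Iqgap2, a scaffold protein of the cytoskeleton, was at 91.8 and 195 CPM against 35.1 and 36. Sparcl1, a matrix glycoprotein, was at 153 and 165 CPM against 62 and 43.3, so that these genes were at least 2-fold higher in each library. Thbs4, a matrix protein of tendon and muscle, was at 54.4 and 92 CPM against 11.9 and 21.5. Nppc, which encodes C-type natriuretic peptide, was high only in library 2, at 104 CPM against 16, and stood at 20.4 CPM against 22 in library 1. It was therefore not called.

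**Figure D3:**
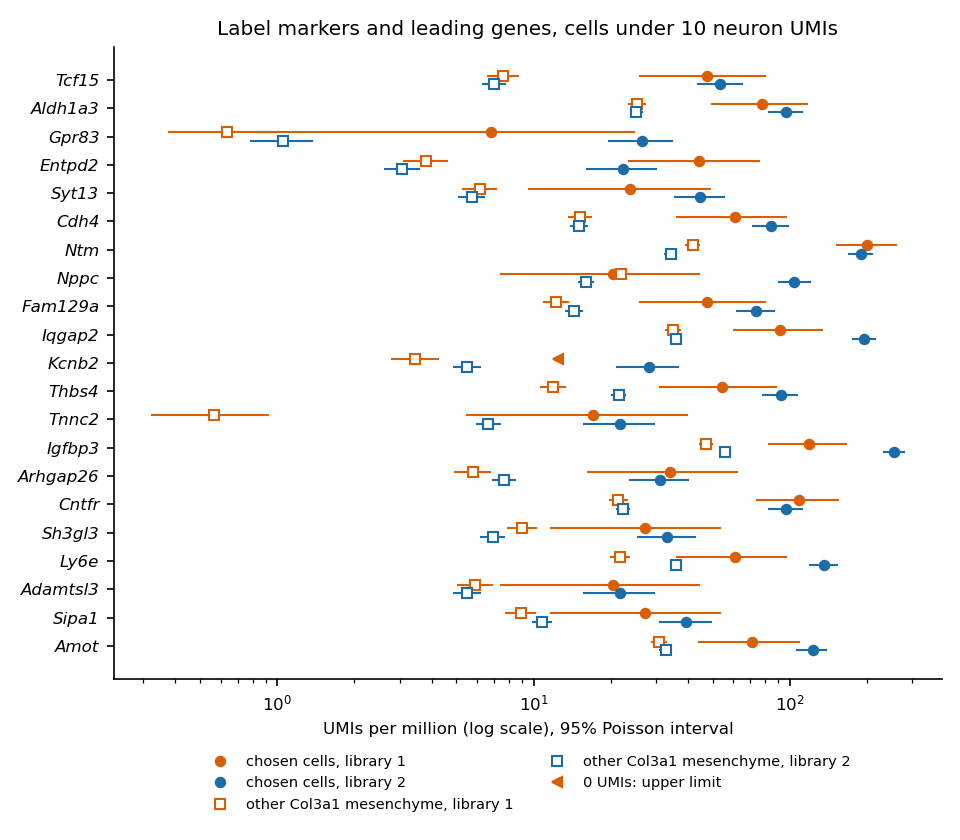
Levels in CPM (log scale) of the label markers and of 19 genes with a high pooled ratio, in the 175 Ngfr/Ebf2 mesenchymal cells (filled circles) and the 7099 comparison cells (open squares) of each library, with 95% Poisson intervals. Filled circles lie to the right of the squares of the same library except for Nppc in library 1 (20.4 against 22) and for Kcnb2 in library 1, which had 0 UMIs and is drawn as a triangle at its upper limit.

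By the smaller of the 2 library ratios the lowest genes named were Ibsp, Smpd3 and Ifitm5, followed by Hba-a1, Hbb-bt and Hbb-bs of haemoglobin and then by Spp1. Ibsp, a matrix protein of bone, was at 20.4 and 15.6 CPM against 963 and 1552, a log2 ratio of -6.38 (-6.89 to -5.91). Smpd3 and Ifitm5, both known from bone, had ratios of -4.62 and -4.58, and Spp1 had -3.20. Of the list of bone markers, 3 of 4 ranked genes were called lower and Sp7, Dlx6 and Msx2 were at 0. Of the cartilage list, 6 of 11 ranked genes were called lower, among them Col2a1 at 496 and 512 CPM against 1566 and 1306, a log2 ratio of -1.45 that was -2.59 when cells marked as doublets were left out. Of the dermal list, 3 of 7 ranked genes were called lower, Twist2, Crabp1 and Lef1, and the median log2 ratio was -0.64, with Twist2 at 13.6 and 31.7 CPM against 98.6 and 96.5 and Crabp1, which binds retinoic acid in the cytoplasm, at 187 and 175 CPM against 448 and 430. All 4 ranked haemoglobin genes were called lower, and their list summed to 136 and 104 CPM against 2072 and 1117. Haemoglobin is made by red cells, and the part of their RNA in other differences was not tested.

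Pathway lists gave few calls beyond the genes named above, and each count is read against the 1.04% and 1.43% called over all genes. In the neurotrophin pathway none of 7 ranked genes was called, with a median log2 ratio of -0.04. Ntrk2, the receptor for brain-derived neurotrophic factor, was at 64.6 and 28.1 CPM against 34.3 and 23.2. Bdnf was at 51 and 27 CPM against 47.8 and 44.1. Among 3 ranked EBF genes and partners outside the rule none was called. Ebf3 was at 88.4 and 92 CPM against 43.6 and 46.7, just under the limit in library 2. Ebf1 differed between the libraries, at 214 CPM against 132 in library 1 and at 91.5 against 107 in library 2.

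In the retinoic acid pathway 2 of 11 ranked genes were called higher and 2 lower. The higher ones, Aldh1a3 and Rdh10, act in retinoic acid synthesis, and Rdh10 was at 74.8 and 84.7 CPM against 31.7 and 19.1. Of the lower ones, Rarg is a retinoic acid receptor and Crabp1 a binding protein. Aldh1a2, the synthetic enzyme of the somites, was at 10.2 and 22.9 CPM against 12.3 and 8.59 and was not called. Among somite and paraxial mesoderm factors 2 of 11 were called higher, Tcf15 and Meox1 (23.8 and 32.2 CPM against 7.17 and 9.97), and 2 lower, Twist2 and Prrx2. The median of this list was -0.66. Of the fat genes 1 of 10 was called higher, Dlk1, and Ucp1, Dio2 and Plin1 of brown and white fat cells were at 0.

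Basement membrane genes had a median log2 ratio of 0.58 with 1 of 13 called. Col4a1 was at 602 and 387 CPM against 184 and 267, at least 2-fold in library 1 only and so not called. Interstitial collagens had a median of 0.00 with 1 of 20 called, Eln, which was lower. Of the Wnt list 3 of 16 were called lower (Wnt4, Wif1 and Lef1), of the BMP and TGF-beta list 1 of 19 (Bmp2) and of the FGF list 1 of 10 (Fgfr2). No gene was called in the hedgehog, Notch, Hox, cell cycle, cell cycle exit or SR splicing factor lists. The imprinted growth genes had a median of 0.64 with 1 of 12 called, Dlk1.

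Markers of other cell types were absent for some genes and present for others. The muscle connective tissue, fascia and tendon lists include genes of the rule. The first summed to 347 and 384 CPM against 257 and 213, with none of 3 ranked genes called. The fascia list summed to 109 and 148 CPM against 82.6 and 91, and its 1 ranked gene was not called. The tendon list summed to 795 and 1327 CPM against 1658 and 1242, with Thbs4 called higher and Fmod lower. Of the Schwann and neural crest list, Foxd3, Cdh19, Tfap2b and Gfra3 were at 0, as was Sox10 by the rule, and Fabp7 was called lower, at 0 and 3.12 CPM against 26.9 and 18.8. The list summed to 160 and 105 CPM against 156 and 125, with Ets1 as its most abundant gene. The endothelial list, with Pecam1 and Cdh5 at 0 by the rule, summed to 204 and 86.3 CPM against 93.2 and 69.9, led by Ramp2, with none of 2 ranked genes called and a median log2 ratio of 0.64. The perineurial and meningeal list summed to 353 and 263 CPM against 425 and 328, led by Crabp2. Ptprc, C1qa, Laptm5 and Tyrobp of immune cells were at 0. The immune list summed to 37.4 and 7.8 CPM against 359 and 26.1, led by Cma1. Myh11 of smooth muscle was at 0 and Acta2 and Tagln were called lower, while the pericyte and smooth muscle list summed to 272 and 229 CPM against 337 and 401, led by Cspg4. The part of these cell types in the other values was not tested. The skeletal muscle list summed to 170 and 504 CPM against 32.1 and 481, led by Actc1, and 1 of 9 ranked genes was called higher, Tnnc2, a troponin, at 17 and 21.8 CPM against 0.565 and 6.66. Pax7 and Myod1 of muscle progenitors were at 0 in library 1 and at 12 and 15.6 CPM in library 2, below the 37.5 and 41.7 CPM of the comparison cells. The 9 chosen cells in the cluster led by Pax7, Msc and Myf5 and the 2 in the cluster led by Myog were all of library 2. The part of muscle RNA in the other values was not tested.

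With all 202 cells several of these counts differed, to be read against the 4.25% and 1.1% called over all genes. Of the cartilage list none of 11 ranked genes was called lower, with Col2a1 at 1721 and 420 CPM against 1500 and 1293, and of the bone list 1 of 4 was, Ibsp. Of the EBF list 2 of 3 were called higher, Ebf1 at 540 and 278 CPM against 148 and 111 and Ebf3 at 110 and 107 CPM against 48.5 and 48. Ebf1 was at 840 CPM in the 27 neuron-RNA cells and at 108 in the 175. Of the Hox list 4 of 11 were called higher. Tcf15, Cntfr, Ntm, Cdh4, Syt13 and Thbs4 were called higher in the 202 cells too, whereas Aldh1a3, Rdh10, Lamb1, Igf1, Igfbp3, Dlk1, Iqgap2, Sparcl1, Hic1 and Meox1 were not.

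Hic1, a repressor found in mesenchymal progenitors, was at 44.2 and 65 CPM against 17.2 and 18.6, a log2 ratio of 1.78 (1.52 to 2.03). RefSeq promoter windows of GRCm38.p6, each from 250 bases before to 50 after a start, were searched on both strands for the palindrome to which EBF factors bind, TCCC and GGGA with any 2 bases between. It lay in 297 of 32851 windows (0.904%), or in a window of 287 of 27025 genes (1.06%) and of 53 of 4869 ranked genes (1.09%). Of the 63 genes called higher, 45 had a window and 2 held the palindrome (4.44%), Hic1 and BC028528, and of the 87 called lower, 65 had a window and 2 held it (3.08%). Hic1 had a further window, chr11:75170206-75170505, without it. Ngfr had a window without these letters. The Hic1 and Ngfr windows are shown because they are an example with the palindrome and the window of the gene that defines the cells. The Hic1 window shown is chr11:75168103-75168402 and the Ngfr window chr11:95587649-95587948, both on the minus strand and written 5′ to 3′, with the palindrome in capitals, starting at base 154 of the Hic1 window.
Hic1: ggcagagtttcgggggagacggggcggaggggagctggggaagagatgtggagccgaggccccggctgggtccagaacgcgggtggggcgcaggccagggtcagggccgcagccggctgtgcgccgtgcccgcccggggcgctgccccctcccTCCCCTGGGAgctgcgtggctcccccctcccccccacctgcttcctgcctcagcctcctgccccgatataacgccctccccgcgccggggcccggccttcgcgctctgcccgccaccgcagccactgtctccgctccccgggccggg
Ngfr: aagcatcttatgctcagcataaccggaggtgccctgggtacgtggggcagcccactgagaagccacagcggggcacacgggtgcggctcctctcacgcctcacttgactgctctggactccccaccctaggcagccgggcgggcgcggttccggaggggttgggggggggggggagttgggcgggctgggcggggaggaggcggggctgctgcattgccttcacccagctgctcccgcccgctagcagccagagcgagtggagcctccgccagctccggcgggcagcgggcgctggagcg
A match of letters is a description of the sequence and shows no binding, and windows of Ebf2, Tcf15 and Aldh1a3 were not analysed here.

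The genes that led the comparison were then followed over neighbouring populations, to see whether they went with Ngfr, with Ebf2 or with both. In cells with Ngfr but without Ebf2 (182 cells), Tcf15 was at 12.8 CPM in library 1 and 18.2 in library 2. In cells with Ebf2 but without Ngfr (1517 cells) it was at 11.9 and 10.7, and in cells with neither (4798) at 5.66 and 4.86. The Ngfr/Ebf2 mesenchymal cells, at 47.6 and 53.5, lay above all of these in both libraries. Tcf15 was also lower in fibroblasts gated on Osr1 and Meox2 (13.5 and 12.8), on Dpt, Clec3b and Cd55 (8.27 and 5.22) and on Tnmd and Scx (6.55 and 3.42). Cells with Ngfr and Ebf2 that the clauses on these genes alone had left out (86, 31 and 15) were not measured apart from their gates. Aldh1a3 had the same order at the top, with 78.2 and 96.7 CPM in the Ngfr/Ebf2 cells, 30.2 and 34.5 in the Osr1 and Meox2 gate and 10.1 and 15.1 in the Tnmd and Scx gate. Cntfr was at 44.1 and 48.4 CPM in cells with Ngfr only and at 19.1 and 31.3 in cells with Ebf2 only.

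Thbs4, Meox1, Ebf3 and Ebf1 were about as high or higher in another gate. Thbs4 was higher in the Tnmd and Scx gate, a set of tendon-type cells, at 116 and 233 CPM. Meox1 there was at 26.7 and 62.3 CPM, at or above the 23.8 and 32.2 of the Ngfr/Ebf2 cells. Ebf3 was as high in cells with Ebf2 only, at 98.5 and 95.6 CPM against 88.4 and 92, within counting error. Ebf1 was at 201 and 210 CPM in cells with Ebf2 only, so that the 91.5 CPM of the Ngfr/Ebf2 cells of library 2 was lower.

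**Figure D4:**
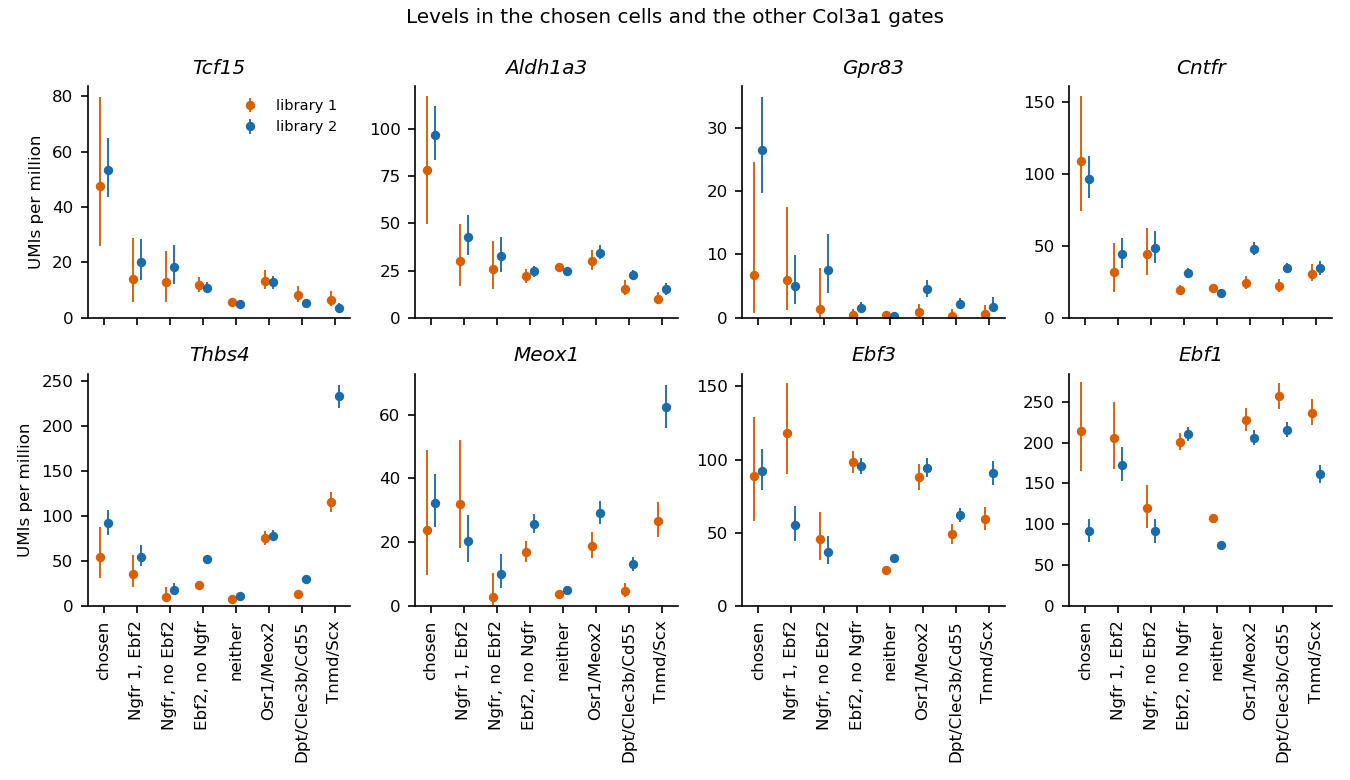
Levels in CPM, with 95% Poisson intervals, of 8 genes in the Ngfr/Ebf2 mesenchymal cells ("chosen") and in 7 other gates of Col3a1 cells, for each library. Tcf15, Aldh1a3, Gpr83 and Cntfr are highest in the chosen cells, where Tcf15 reaches 47.6 and 53.5 (Gpr83 of library 1 lies within counting error of other gates), while Thbs4 and Meox1 of library 2 are highest in the Tnmd and Scx gate, at 233 and 62.3.

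The cells did not form a cluster of their own. In clusters built without the genes of the rule, 117 of the 175 (66.9%) fell in a cluster of 2808 cells led by Thbs4, Igf1, C1ql3 and Angptl1, of which they made up 4.17%. A further 28 (16%) fell in a cluster led by Car3, Lpl, Cd36 and genes of cell division. The rest were spread over 10 clusters, with 9 in a cluster led by Pax7, Msc and Myf5 (all of library 2), 7 in one led by cartilage genes (1 of library 1), 2 in one led by Myog (both of library 2) and 2 in one led by Rgs5 (both of library 1). They nevertheless lay near each other. Depth differed between these places, with medians of 9633 UMIs in the main cluster, 14231.5 in the cluster led by Car3 and 19991.5 in the rest. Tcf15 was at 65.4, 61.2 and 22.7 CPM and Cntfr at 112, 125 and 53.6 CPM in these 3 classes, so that cells outside the leading clusters were the low ones. On average 17.8% of the 20 nearest neighbours of such a cell were other Ngfr/Ebf2 mesenchymal cells, 22.5 times their share of all cells (0.792%), and 27 of the 175 had none. For the comparison cells the figure was 1.54%. The share of neighbours that were Ngfr/Ebf2 mesenchymal cells was 11.2% for those of library 1 and 18.8% for those of library 2. Cells of the Osr1 and Meox2 gate made up 20.9% of the neighbours, 4.82 times their share. Cells with Ebf2 but without Ngfr made up 20.4%, 2.97 times their share.

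**Figure D5:**
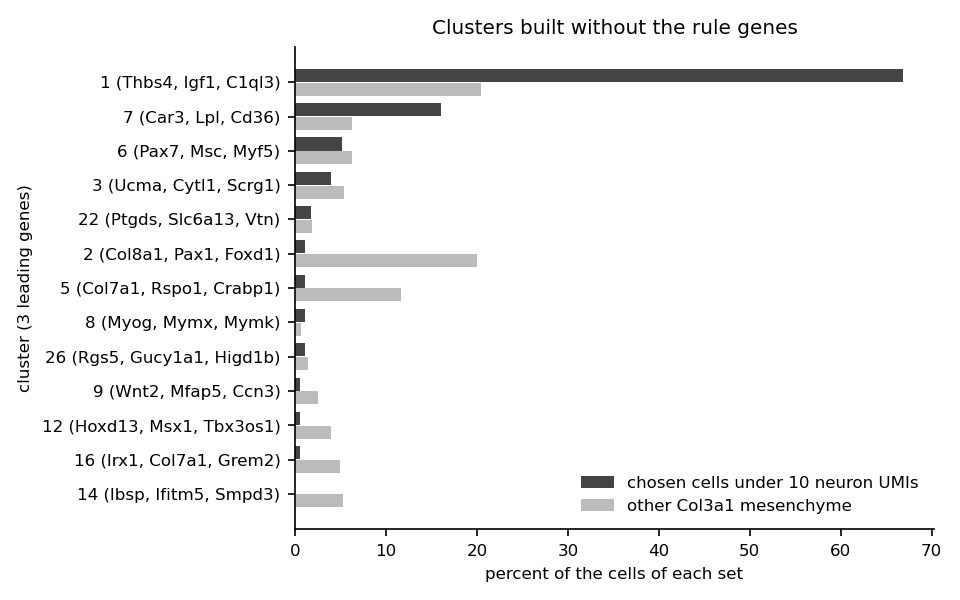
Bars give the percent of the 175 Ngfr/Ebf2 mesenchymal cells (dark) and of the other Col3a1 mesenchyme (light) in each cluster, named by its 3 leading genes. The cluster led by Thbs4, Igf1 and C1ql3 holds 66.9% of the Ngfr/Ebf2 cells and 20.4% of the others.

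The comparison was then repeated inside the main cluster, with 117 cells (15 and 102) against 1488, a step added after the data had been seen. Of 6027 genes 40 were higher and 70 lower by the same limit, and 19 of the 40 were among the 63. Tcf15 had a log2 ratio of 2.20, at 65.4 CPM against 14.2, Entpd2 1.96, Aldh1a3 1.82 (1.52 to 2.11), Syt13 1.52, Rdh10 1.41, Ntm 1.35, Cdh4 1.35 and Iqgap2 1.28, and all were called. Gpr83 had the largest ratio of the genes named here, 3.28 (2.60 to 3.96). It was at 6.67 CPM against 2.16 in library 1 and at 36 CPM against 4.04 in library 2, so that the ratio rested mostly on library 2. Igfbp3, Cntfr and Lamb1 were no longer called, with pooled ratios of 1.57, 1.28 and 1.02, since each was under 2-fold in 1 library. Igfbp3 was at 100 CPM against 68 in library 1, and in library 2 Cntfr was at 108 CPM against 57.1 and Lamb1 at 246 CPM against 132. Further genes were near the comparison cells. The ratio of Igf1 was 0.08 (-0.04 to 0.20), of Meox1 0.14 (-0.32 to 0.57), of Angptl1 0.20, of Thbs4 0.36, of Dlk1 0.51 and of Hic1 0.66. Igf1, at 537 CPM in the chosen cells and 507 in the others, was a gene of the whole cluster. Ebf3 (-0.38) and Twist2 (0.17) changed sign, and cartilage, bone and haemoglobin genes came closer to the comparison cells, with Col2a1 at -0.19 (-0.40 to 0.02), Ibsp at -0.77 and Hbb-bs at -0.15. Genes of muscle fibres, Acta1, Myl1, Mylpf and Tnnc2, were among the 40.

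The cells also varied among themselves with the level of Ngfr. In cells with 2, with 3 or 4, and with 5 or more Ngfr UMIs (70, 58 and 47 cells), Igfbp3 was at 147 CPM (122 to 176), 209 (177 to 244) and 387 (340 to 438). Aldh1a3 was at 74.1, 72.1 and 145 CPM, and Nppc at 54.4, 60.3 and 181. Tcf15 was at 35.8 CPM (24 to 51.5), 63 (46.4 to 83.5) and 61.8 (44.2 to 84.2), with intervals that overlapped. Ebf1 ran the other way, from 138 CPM to 115 and 60.3. Mki67, a marker of cycling cells, was at 93.9 CPM (74 to 118), 122 (98.5 to 149) and 230 (195 to 270), so that it was highest in the highest class, but it was also at 155 CPM (138 to 173) in the cells with 1 Ngfr UMI just outside the rule. Library composition moved with the classes: the highest held 2 cells of library 1 and 45 of library 2, and the part of cell division and of library in them was not tested. Median depth was similar, at 10601.5, 10819 and 11886 UMIs.

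Part of the cells were dividing. Mki67 was at 475 CPM in the 28 cells of the cluster led by Car3 and at 23.8 CPM in the 117 of the main cluster, while Tcf15 was alike in both, at 61.2 and 65.4 CPM. After thinning to 5000 UMIs, 47.8% of the cells of library 1 (26.8 to 69.4) and 41.6% of library 2 (33.6 to 50) had at least 2 UMIs over 8 genes of cell division. The comparison cells had 24% and 39.2%. Unthinned, the shares were 54.2% and 57.6% against 30% and 49%. The interval of library 1, with 23 cells, lay just above the comparison share, and that of library 2 included it. At 2000 UMIs the interval of library 1 included the comparison share too, with 25% (9.77 to 46.7) against 13.6%.

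Finally, the libraries were compared within the cells. Of 5716 genes, 312 (5.46%) were at least 2-fold higher and 110 (1.92%) at least 2-fold lower in library 2, and for 158 and 104 of these the counting interval excluded 0. The same genes in the comparison cells gave 42 (0.735%) and 9 (0.157%), and 21 were called the same way in both. The 24 cells of library 1 held 294209 UMIs in all, against 1924295 in library 2, so that a gene at 20 CPM was expected at a few UMIs only. With all 202 cells, 284 of 6052 genes (4.69%) were higher and 244 (4.03%) lower in library 2.

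The highest ratio was that of Myog, the myogenic factor of differentiating muscle, at 3.4 CPM (1 UMI) in library 1 and 67 in library 2. It was at 1.87 and 39 CPM in the comparison cells, so that the difference was not particular to the Ngfr/Ebf2 cells. The 9 and 2 chosen cells in the clusters led by Pax7 and by Myog were of library 2, and their part in this ratio was not tested. C1ql3, a secreted synaptic protein, was at 3.4 and 41.6 CPM against 10.2 and 16.1 in the comparison cells. Ncoa6, Rbp4 and Hist1h2ab also had 1 UMI in library 1 and 69 to 72 in library 2. Lower in library 2 were Ecrg4, a secreted peptide gene, at 201 and 32.7 CPM (log2 -2.61, -3.15 to -2.08), Hspb1, a small heat shock protein, at 622 and 102 CPM (-2.60), Foxd1, a forkhead factor, at 129 and 23.9 CPM (-2.43), Tm4sf1 at 95.2 and 18.7 CPM and Mt2, a metallothionein, at 122 and 30.1 CPM. The comparison cells had the same sign for all 5, with Ecrg4 at 244 and 127 CPM and Foxd1 at 97.6 and 38.9. Among the genes that lead these cells, Igfbp3 (log2 1.11, 0.61 to 1.65) and Iqgap2 (1.09, 0.52 to 1.71) were higher in library 2, whereas Tcf15 (0.17, -0.64 to 1.09) and Aldh1a3 (0.31, -0.32 to 1.0) did not differ beyond counting error.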

How the data were processed

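Embryos at E14 gave 2 libraries of tdT-sorted cells, 1 per genotype, made with 10x 3′ chemistry. The deposited matrix holds UMI counts of 32285 genes in 27766 barcodes, assigned to libraries by barcode suffix. Per the labels the authors used Cell Ranger (3.1.0 in the submitters' notes, 5.0.0 in the matrix header), STAR, mm10 and Seurat 3.1.1, and their methods state that reads were down-sampled on aggregation, so totals do not show full depth. The deposited run summaries, in several units (other), gave cell numbers, reads (575393483 and 571426356) and saturation (45.9% and 39.5%). Barcodes with under 1000 UMIs (1728 and 2110) or over 10% mitochondrial UMIs (828 and 1014) were left out. Median depth of kept cells was 9863 and 10957 UMIs.

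UMIs were summed per library and cell set and expressed as CPM. Genes at 20 CPM or more were ranked, and 2-fold in the same direction in both libraries was a call. Levels have Poisson intervals, shares exact binomial (Clopper-Pearson) intervals and ratios intervals from the split of counts, all 95%. The arithmetic was checked on simulated data. Clusters (Leiden) and neighbours (20, over 30 components) were computed without the genes of the rule. Doublets were called with Scrublet per library and kept. Python 3.11.15, numpy 2.4.6, scipy 1.17.1, pandas 2.3.3, scanpy 1.11.5, leidenalg 0.10.2 and matplotlib 3.10.9 were used. Genes named were the 25 highest and 10 lowest by the smaller of the 2 library ratios, the 5 highest and 5 lowest between libraries, and the most abundant and called genes of 37 lists, from which examples were taken. A ranking of 30 genes by pooled ratio (at least 40 UMIs) was added after the data had been seen, and so was the split at 10 neuron UMIs, run beside every alternative. The members and lists were chosen with earlier results of these data known. Alternatives changed the limits of the rule, the cell filters, the level and fold limits, the scaling, the comparison cells, the depth of thinning and the neighbour settings. Results for some genes are not reported here.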

Additional observations from a re-analysis of the deposited data

How the results depend on the processing

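No paired analysis was possible because each genotype had 1 library, and for the same reason no replicate could be left out. The share of chosen cells among all kept cells was higher in library 2 under each alternative run, with a log2 ratio of 1.64 to 2.81. Over smaller denominators the ratio for all 202 cells was lower than this range. It was 1.46 (0.93 to 1.99) among Col3a1 cells without Sox10, Pecam1 or Cdh5. Among cells that met every clause except those on Ngfr and Ebf2 it was 1.56 (1.02 to 2.09). Of the values that answer a comparison, 112 stayed close to those reported and 69 moved. Of the values for single genes 597 stayed close, 86 moved and 3 changed sign. These were Ebf3 (-0.38) and Twist2 (0.17) within the commonest cluster only, and Tnnc2 (-0.02) with all 202 cells and a Col3a1 minimum of 1. A change of sign was counted only where the reported ratio was at least 2-fold, higher or lower. Scrublet marked 0 of 9942 cells of library 1, so that leaving out doublets had no effect there. The cause of the changes below was not tested except where fewer UMIs or cells or another limit make them by construction.

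Genes higher in all 202 cells (270) numbered 418 with a Col3a1 minimum of 1, 169 with an Ngfr minimum of 1, 63 without neuron RNA, 156 without the fibroblast exclusions, 505 at 1.5-fold, 169 at 3-fold, 111 at 50 CPM, 112 by the mean of per-cell CPM and 1200 with no level filter. In the 175 cells (63) they numbered 120 with a Col3a1 minimum of 1, 40 in the commonest cluster, 98 against cells without Ngfr and Ebf2, 209 at 1.5-fold, 17 at 3-fold, 32 at 50 CPM and 294 with no filter. Of the 63 genes, 34 were also called with an Ngfr minimum of 1, 39 without the exclusions and 45 against comparison cells of the same depth. Genes lower in all 202 cells (70) numbered 138 with a Col3a1 minimum of 1, 30 with an Ngfr minimum of 1, 109 with a denominator without haemoglobin, mitochondrial and ribosomal genes, 186 at 1.5-fold, 19 at 3-fold, 35 at 50 CPM and 202 with no filter. In the 175 cells (87) these were 134 with a Col3a1 minimum of 1, 27 with an Ngfr minimum of 1, 204 at 1.5-fold, 26 at 3-fold, 41 at 50 CPM and 182 with no filter.

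Between libraries, genes higher in library 2 over all 202 cells (284) numbered 182 with an Ngfr minimum of 1, 440 with 3, 107 without the exclusions, 740 at 1.5-fold, 72 at 3-fold, 94 at 50 CPM and 1058 with no filter. In the 175 cells (312) these were 474 with an Ebf2 minimum of 2, 183 with an Ngfr minimum of 1, 604 with 3, 494 with the reduced denominator, 106 without the exclusions, 799 at 1.5-fold, 96 at 3-fold, 61 at 50 CPM and 864 with no filter. Genes higher in library 1 over all 202 cells (244) numbered 379 with a Col3a1 minimum of 1, 377 with an Ngfr minimum of 3, 110 without neuron RNA, 648 at 1.5-fold, 46 at 3-fold, 97 at 50 CPM and 1284 with no filter. In the 175 cells (110) these were 231 with an Ngfr minimum of 3, 36 without the exclusions, 499 at 1.5-fold, 19 at 3-fold, 22 at 50 CPM and 885 with no filter.

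Thinned to 2000 UMIs, cells with genes of cell division were 18.2% (library 1) and 28.4% (library 2) of all chosen cells, and 25% (9.77 to 46.7) and 29.1% (22 to 37.1) without neuron RNA, against 13.6% and 27.2% of the comparison cells. Aldh1a3 was then seen in 12.1% and 14.2%, and in 16.7% and 15.2% without neuron RNA, and Tcf15 of library 2 in 8.88% and 9.93%. With 15 components 11.8% of neighbours were Ngfr/Ebf2 mesenchymal cells. The depth of library 1, with 24 such cells, limits each ratio between libraries.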
